A study of Cunninghamia lanceolata with 3 samples.

Results

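Receptor kinases are membrane proteins that bind a signal outside the cell and pass it on by phosphorylating proteins inside. In plants most of them have an outer part of leucine-rich repeats or another binding domain, a membrane span and an inner serine/threonine kinase, and their ligands include small peptides and steroids. In the vascular cambium, the sheet of dividing cells between wood and bark, such receptors are known from Arabidopsis to keep stem cells dividing and to set where xylem and phloem form. The unigenes described here (assembled transcript sequences) are those whose gene ontology process field holds the term for signalling by enzyme-linked receptors. Unigenes whose best protein hit names clavata, BRI1, brassinosteroid, NBS or disease resistance were left out. This gave 57 members of 53590 unigenes, and 9 more with the term were set aside by name.

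The libraries came from the cambium of Cunninghamia lanceolata (Chinese fir, a conifer), from trees of about 16 years growing under natural conditions, cut as tangential cryosections. Each stage, dormant, reactivating and active, had 1 library, with 5.849, 5.850 and 5.843 M uniquely mapped reads. How many trees each library holds is not given in the sources. With no replicates there is no test between stages, and every ratio below compares these libraries. Each ratio is of RPKM (uniquely mapped reads scaled by unigene length and by the library total) and, where an interval follows in parentheses, that is the 95% exact one, which covers counting error only.

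The term did not collect receptor kinases alone. A function term naming a kinase was present for 48 of the 57 members, and all 57 carried the term for adenyl ribonucleotide binding, the pocket that holds ATP. The 9 members without a kinase term had the wider term for transfer of phosphorus-containing groups. A membrane term was present for 52 of the 57. Of the 57, 8 also carried amylase activity and starch metabolism, together with meristem maintenance, and 4 carried a transcription factor activity term together with seed germination and maturation. BAM is the usual short name both of beta-amylases, which break down starch, and of the BARELY ANY MERISTEM receptor kinases of the clavata family. Over the whole series 47 unigenes had the amylase term, and 22 of these had meristem maintenance as well. The members are therefore given as a kinase group of 45, an amylase group of 8 and a transcription factor group of 4. This grouping was made from the function terms after the values were seen.

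Names told little about the members. The best hit was unknown, hypothetical, predicted or unnamed for 41, and 11 had a hit that names a receptor or a kinase. The other 5 named hits were 2 ATP binding proteins, a beta-amylase, a B3 domain protein and a polygalacturonase-inhibiting protein. Of 22 name patterns for receptor kinase families and for kinases in general, 17 matched no member. The best hits were in flowering plants for 36 members, in spruce or pine for 12 and in a lycophyte or a moss for 8. A shared best hit joined 15 members in 7 sets, which can be pieces of 1 transcript or close copies, so that their separate counts are uncertain. An oxidoreductase term stood beside the kinase term or its parent in 29 members. Members were 150 to 4202 bases long with a median of 388, against 323 for all unigenes. They had a median of 168 reads in all, against 87.

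Most measured members, taken over all groups, were higher in the growing libraries than in the dormant one. In the reactivating library 24 of the 45 measured members were at least 2-fold higher and 5 were at least 2-fold lower (measured means at least 20 reads in both libraries together). Among all 36274 measured unigenes, 16.9% were higher and 13.8% lower. The members' median log2 ratio was 1.27, against 0.07 for all unigenes. In the active library, set against the same dormant library, 28 of 45 members were higher and 4 lower, with a background of 18.1% and 13.8%, and the median was 1.55, against 0.01. Since both comparisons share the dormant library, they are not separate evidence. In bulk tissue, fewer cells of a type and less RNA per cell cannot be told apart.

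Within the kinase group, 23 of 36 measured unigenes were higher and 1 lower in the reactivating library, and 26 of 36 were higher and 0 lower in the active library. Its median log2 ratios were 1.54 and 2.02. Its summed level was 727, 3235 and 3837 RPKM in the dormant, reactivating and active libraries. That sum was 4.45-fold higher in the reactivating library than in the dormant library, and 5.28-fold higher in the active library than in the dormant library. The 12 kinase group members of at least 1000 bases gave a like count, with 7 of 11 measured higher and 1 lower in the reactivating library. Of the kinase group with a receptor or signal transducer term 8 of 14 measured were higher in the reactivating library, and of those without such a term 15 of 22.

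**Figure D1:**
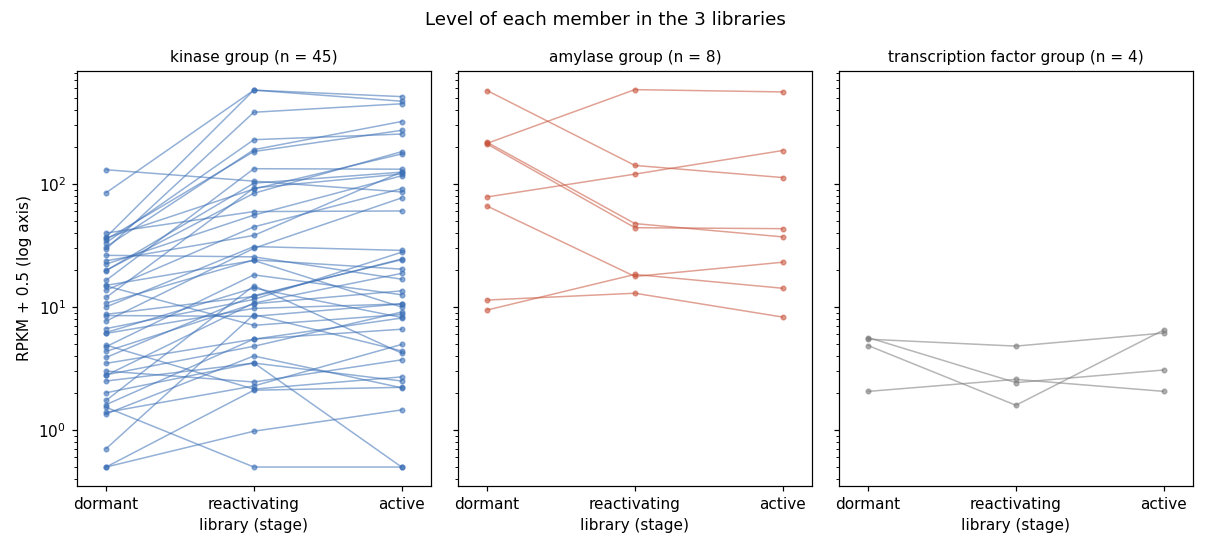
Level of each of the 57 members in the dormant, reactivating and active libraries, as RPKM plus 0.5 on a log axis, with 1 line per unigene and a panel for each function group. Most lines of the kinase group climb after the dormant library, while 4 of the 8 lines of the amylase group drop, and the transcription factor group stays low throughout.

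The clearest differences were in unigenes with many reads. Unigene54078, whose hit is a hypothetical protein of grape, had 29.0, 382 and 448 RPKM in the dormant, reactivating and active libraries. It was 13.2-fold higher in the reactivating library than in the dormant library (10.8 to 16.2). Unigene39074, annotated as a membrane-bound kinase, had 36.4, 578 and 470 RPKM and was 15.9-fold higher in the reactivating library (12.1 to 21.2). Both had their lowest level in the dormant library and were within 1.5-fold of their active level in the reactivating library.

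Unigene59587 is the member with a vascular annotation, since its process terms include vascular transport and the patterning of xylem and phloem. Its 2648 bases were covered to 91.4%, 99.7% and 99.5% by reads by stage, dormant to active. It had 247, 2052 and 2031 reads, or 15.9, 132 and 131 RPKM. The reactivating level was 8.31-fold above the dormant one (7.28 to 9.52), and the active level was 0.991 times the reactivating one (0.931 to 1.05). The difference lay between the dormant library and the other 2.

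Unigene55049, annotated with receptor serine/threonine kinase activity, had the highest mean level of the kinase group. It had 84.3, 578 and 512 RPKM in the dormant, reactivating and active libraries and was 6.86-fold higher in the reactivating library than in the dormant library (6.12 to 7.70). Unigene59422, whose hit is named a protein kinase of apple, had 19.2, 101 and 124 RPKM and was 5.25-fold higher (4.56 to 6.07). Unigene44776, with a moss hit, had 34.8, 183 and 272 RPKM and was 5.25-fold higher (4.04 to 6.93). Unigene27110, a short unigene of 186 bases, had 30.3, 189 and 321 RPKM and was 6.24-fold higher (4.31 to 9.31). All 4 were lower in the dormant library than in either other library, and the last 3 had their highest level in the active library.

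Unigene56023 and Unigene51672 share 1 spruce protein of unknown function as best hit and carry signal transducer and protein kinase terms. Unigene56023 had 32.8, 228 and 254 RPKM and Unigene51672 had 11.4, 92.2 and 120 RPKM in the dormant, reactivating and active libraries. They were 6.97-fold (5.88 to 8.31) and 8.06-fold (5.63 to 11.9) higher in the reactivating library than in the dormant library. The pair had the same course, with overlapping intervals.

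Leucine-rich repeat names were few among the members. Unigene57444, whose hit is the EXS receptor kinase, known from Arabidopsis anther development, had 5.70, 13.7 and 7.72 RPKM in the dormant, reactivating and active libraries. It was 2.41-fold higher in the reactivating library than in the dormant library (1.60 to 3.71). Unigene53760 and Unigene36281, with leucine-rich repeat receptor kinase hits, had 20, 33 and 36 reads and 6, 25 and 17 reads by stage, dormant to active. All 3 had their lowest level in the dormant library, though not always beyond counting error. The ratio of active over dormant was 1.35 (0.851 to 2.18) for Unigene57444. The ratio of reactivating over dormant was 1.65 (0.919 to 3.03) for Unigene53760. These intervals reach below the dormant level, and those of the other ratios of the 3 to the dormant library do not.

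Other kinase group members with their lowest level in the dormant library had poplar, Arabidopsis lyrata and Selaginella hits of unknown function. Unigene52960 had 35.9, 90.4 and 175 RPKM, Unigene16453 had 9.50, 30.5 and 28.3 RPKM and Unigene57675 had 3.85, 10.1 and 13.0 RPKM in the dormant, reactivating and active libraries. They were 2.52-fold (2.03 to 3.14), 3.21-fold (2.31 to 4.53) and 2.62-fold (1.62 to 4.39) higher in the reactivating library than in the dormant library. At the other end of detection, 8 of the 57 members had under 20 reads in all, and 4 were missing from at least 1 library.

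The largest ratio belonged to a unigene that was nearly absent in dormancy. Unigene59096, of 1672 bases, had 2, 80 and 38 reads by stage, dormant to active, with 5.86%, 82.6% and 64.0% of its length covered. It was 40.0-fold higher in the reactivating library than in the dormant library (10.7 to 336). Unigene19303 has the same spruce best hit and a length of 150 bases, and it had 114, 92 and 75 reads, with a ratio of reactivating over dormant of 0.807 (0.606 to 1.07). The 2 unigenes with 1 best hit did not share a course. Unigene5188, of 1491 bases, had 0, 14 and 15 reads and was too thinly read to be measured between the reactivating and dormant libraries.

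**Figure D2:**
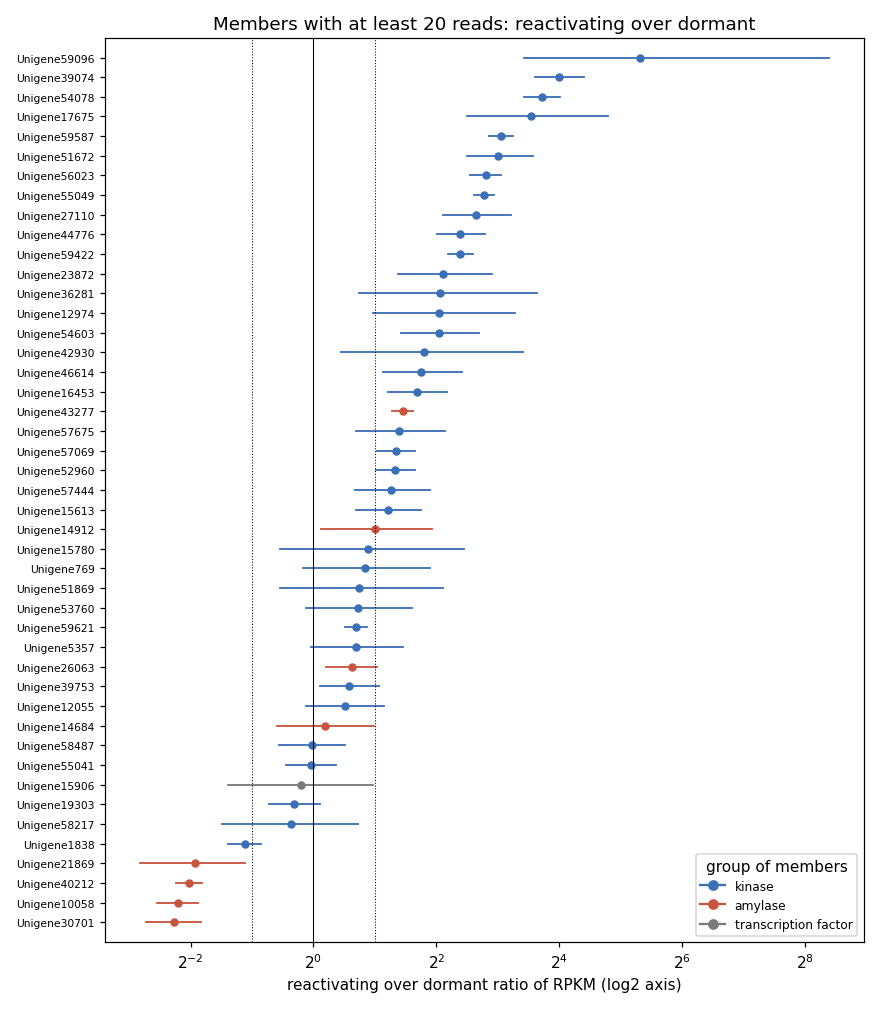
Ratio of RPKM in the reactivating over the dormant library for the 45 measured members on a log2 axis, with points for ratios, bars for 95% exact counting intervals, a solid line at 1 and dotted lines at 2-fold either way. The kinase group fills the upper end, from Unigene59096 down, and 4 unigenes of the amylase group form the lower end.

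Some kinase group members did not follow. Unigene1838, the longest member at 4202 bases, had 14.3, 6.59 and 8.19 RPKM in the dormant, reactivating and active libraries and was 2.17-fold lower in the reactivating library than in the dormant library (1.80 to 2.63). It was the sole measured member of the kinase group at least 2-fold lower there. Unigene58487 had 62, 61 and 78 reads in the same order of libraries and Unigene55041 had 106, 103 and 67 reads, and neither reached 2-fold in a comparison. Members just inside and outside the threshold for higher in the reactivating library were Unigene15613 at 2.31-fold and Unigene14912, which had 34 reads in the reactivating library and 17 in the dormant library, just under 2-fold.

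Fewer members differed by 2-fold between the 2 growing stages. Against the reactivating library, 9 of 48 measured members were at least 2-fold higher and 4 lower in the active library, with a background of 6.76% and 5.14%. All 13 belonged to the kinase group, which held 39 of the 48 measured members. The median log2 ratio was 0.26, against -0.06 for all unigenes. The count rests on values near the threshold, because 5 of the 9 had ratios between 2 and 2.1, and 2 had an interval wholly above 2-fold.

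Those 2 were Unigene59621 and Unigene54603. Unigene59621, of 2912 bases and with protein kinase and cytoplasmic vesicle terms, had 396, 641 and 2121 reads, or 23.3, 37.6 and 125 RPKM, in the dormant, reactivating and active libraries. It was 3.31-fold higher in the active library than in the reactivating library (3.03 to 3.62). Unigene54603, whose hit is a receptor protein kinase of Scots pine, had 7.18, 29.5 and 76.5 RPKM and was 2.59-fold higher (2.09 to 3.25). The first changed mainly after reactivation, while the second stepped up at both stages.

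Unigene23872, annotated with response to a symbiont, had 19.3, 83.4 and 182 RPKM in the dormant, reactivating and active libraries and was 2.19-fold higher in the active library than in the reactivating library (1.67 to 2.87). Unigene46614 had 13.2, 44.3 and 91.0 RPKM and was 2.06-fold higher (1.60 to 2.66). Unigene57069 had 21.8, 55.3 and 116 RPKM and was 2.1-fold higher (1.83 to 2.41). Its partner by best hit, Unigene12055, had 8.21, 11.7 and 24.0 RPKM and was 2.06-fold higher (1.47 to 2.90). Unigene42930 had 6, 21 and 42 reads, with a ratio of active over reactivating just past the threshold (1.16 to 3.56). Each of these 5 had its lowest level in the dormant and its highest in the active library. For Unigene12055 the ratio of reactivating over dormant was 1.42 (0.921 to 2.21), an interval that reaches below the dormant level.

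At least 2-fold above both other libraries in the reactivating library stood 3 members. Unigene17675 has the same Scots pine hit as Unigene54603 and gave 8, 93 and 24 reads by stage, dormant to active. It was 11.6-fold higher in the reactivating library than in the dormant library (5.66 to 27.7), and 3.87-fold lower in the active library than in the reactivating library (2.45 to 6.34). Unigene12974, with a moss hit, had 9, 37 and 18 reads, and Unigene59096 had the 2, 80 and 38 reads given above. The ratio of active over reactivating was 0.487 (0.261 to 0.877) for Unigene12974 and 0.476 (0.314 to 0.708) for Unigene59096. Both ratios lie near the threshold, and both intervals include differences of less than 2-fold. Of the 3 members, Unigene17675 alone had intervals wholly beyond 2-fold against both other libraries. A further unigene with the Scots pine hit, Unigene769, had 14, 25 and 62 reads and was 2.48-fold higher in the active library than in the reactivating library (1.54 to 4.12). Unigene5357, with a grape hit of unknown function, had 26, 42 and 17 reads and was 2.47-fold lower in the active library than in the reactivating library (1.38 to 4.62). Its ratio of active over dormant was 0.654 (0.333 to 1.25). Of the 3 unigenes with the Scots pine hit, 2 peaked in the active and 1 in the reactivating library.

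**Figure D3:**
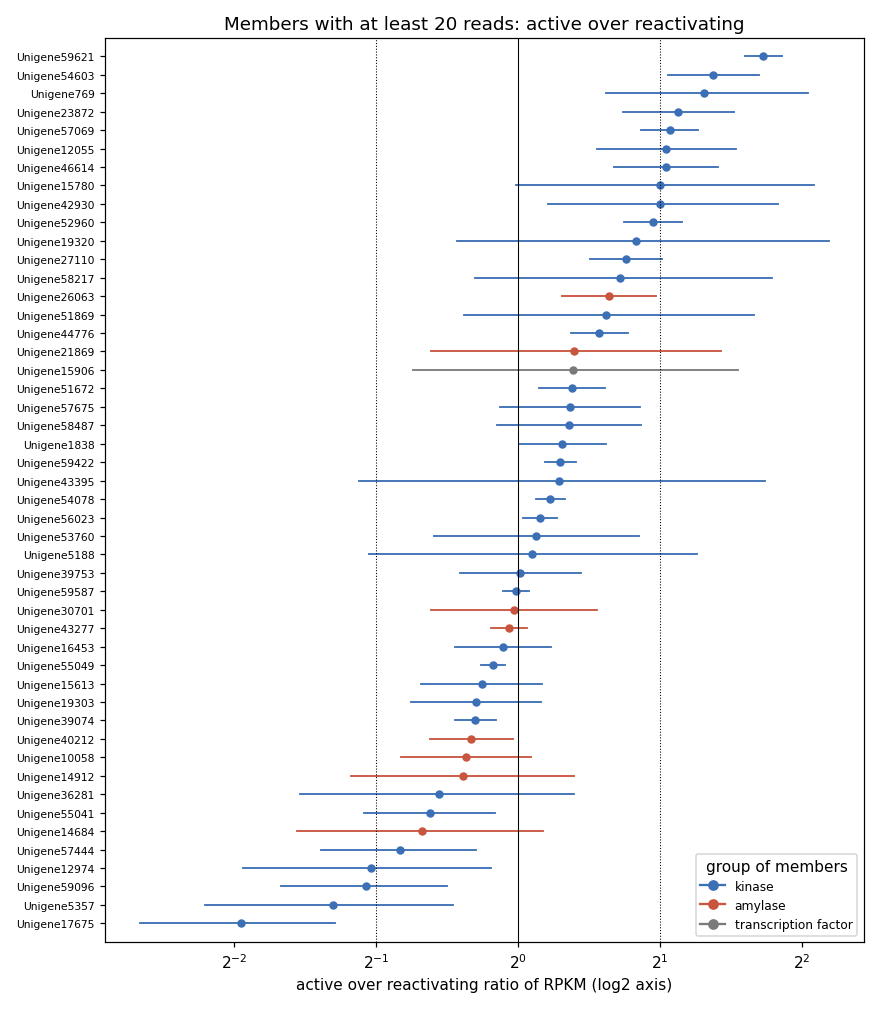
Ratio of RPKM in the active over the reactivating library for the 48 measured members on a log2 axis, with points for ratios, bars for 95% exact counting intervals, a solid line at 1 and dotted lines at 2-fold either way. Unigene59621 leads at 3.31, Unigene17675 is lowest, and most members lie within 2-fold.

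Over the 3 stages, 41 members had at least 50 reads in all. Each unigene was counted under 1 pattern, for members and background alike. A place above both others in the reactivating or active library went before one below both in the dormant library. So counted, 8 were at least 2-fold above both others in the active library (background 3.16%), and 3 in the reactivating library (background 1.32%). A further 13 were at least 2-fold below both others in the dormant library (background 11.6%). That 13 leaves out all 3 with a reactivating peak and, of the 8, Unigene54603, Unigene23872, Unigene46614, Unigene57069 and Unigene42930. These were also at least 2-fold lower in the dormant library than in both others. The share of all unigenes was not counted in that wider way. In the dormant library 4 were at least 2-fold above both others, against a background of 6.7%. No member was below both others in the reactivating or the active library, where the background is 2.12% and 2.08%. All 4 with a dormant peak belonged to the amylase group.

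The amylase group is given by whether a member had a kinase term. The parts overlapped in their ratios of reactivating over dormant. The 6 members with no kinase term had 4 at least 2-fold lower and 0 higher in the reactivating library, with a median log2 ratio of -1.98. Unigene40212 had 574, 141 and 112 RPKM in the dormant, reactivating and active libraries and was 4.07-fold lower in the reactivating library than in the dormant library (3.52 to 4.73). Unigene10058, with the same spruce hit, had 218, 47.1 and 36.6 RPKM and was 4.62-fold lower (3.69 to 5.83). Unigene30701 had 210, 43.6 and 42.8 RPKM and was 4.83-fold lower (3.57 to 6.64). Unigene40212 was the member with the highest level in the dormant library.

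Unigene21869, a unigene of 159 bases in the same set, had 61, 16 and 21 reads by stage, dormant to active, and was 3.81-fold lower in the reactivating library than in the dormant library (2.17 to 7.09). Unigene14912, the one whose hit names a beta-amylase, had 17, 34 and 26 reads. Unigene14684 shares its spruce hit with Unigene30701 but had 28, 32 and 20 reads. The last pair had few reads and stayed under 2-fold.

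The 2 amylase group members with a receptor kinase term have hits named receptor-like protein kinase 1 and 3 of soybean, and both exceeded their dormant level by over 2-fold in the active library. Unigene43277 had 213, 584 and 559 RPKM in the dormant, reactivating and active libraries and was 2.74-fold higher in the reactivating library than in the dormant library (2.43 to 3.08). Unigene26063 had 77.9, 120 and 186 RPKM and was 1.54-fold higher in the reactivating library (1.15 to 2.05) and 2.39-fold higher in the active library than in the dormant library (1.84 to 3.14). Outside the receptor term, 35 unigenes carried the amylase term. Of 29 measured, 0 were at least 2-fold higher and 10 lower in the reactivating library than in the dormant library. Among all measured unigenes, 16.9% were higher and 13.8% lower there. Unigene59321, the one of the 35 with the most reads, had 115, 26.5 and 19.2 RPKM.

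The transcription factor group was close to the limit of detection. Its 4 members had 34, 22 and 35 reads in sum in the dormant, reactivating and active libraries, and 1 of them, Unigene15906, was measured. Its hit is a B3 domain protein of rice, of a DNA-binding family, and it had 15, 13 and 17 reads. The other 3 had under 20 reads in each pair of libraries and were not called. Of these, Unigene43748 had 8, 2 and 11 reads, with a ratio of active over reactivating of 5.51 (1.2 to 51.1). Among the kinase group, Unigene43395, which carries terms for the fate of root epidermal cells, had 2, 9 and 11 reads, and Unigene23357, with the polygalacturonase-inhibiting hit, had 1, 0 and 0 reads.

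Other kinases gave a measure of what is common to kinase unigenes. Of 1200 measured unigenes with a kinase function term outside the receptor term, 201 were at least 2-fold higher and 206 lower in the reactivating library than in the dormant library, with a median log2 ratio of -0.03. Among all measured unigenes, 16.9% were higher and 13.8% lower. Of 52 measured unigenes whose hits name a receptor kinase without the term, 22 were higher and 8 lower, with a median of 0.63. That list of 102 is by name and includes 4 histidine kinases named as cytokinin receptors. Unigene57454, named somatic embryogenesis receptor-like kinase 1, a co-receptor in Arabidopsis, had 45.5, 96.4 and 91.5 RPKM in the dormant, reactivating and active libraries. Unigene45744, named for THESEUS 1, which in Arabidopsis senses the state of the wall, had 42.5, 3.95 and 13.8 RPKM and was 10.8-fold lower in the reactivating library (5.22 to 25.7). Unigene18900, named a nodulation receptor kinase, was at 0 in the dormant library, against which stood 184 reads at reactivation and 143 in active growth. Against a floor of 3 reads for the dormant library, its reactivating level was 61.3-fold higher, a value set by that floor. The lower 95% counting limit of the ratio is 49.4. Of the 8 measured unigenes set aside by name, 4 were higher and 0 lower in the reactivating library.

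**Figure D4:**
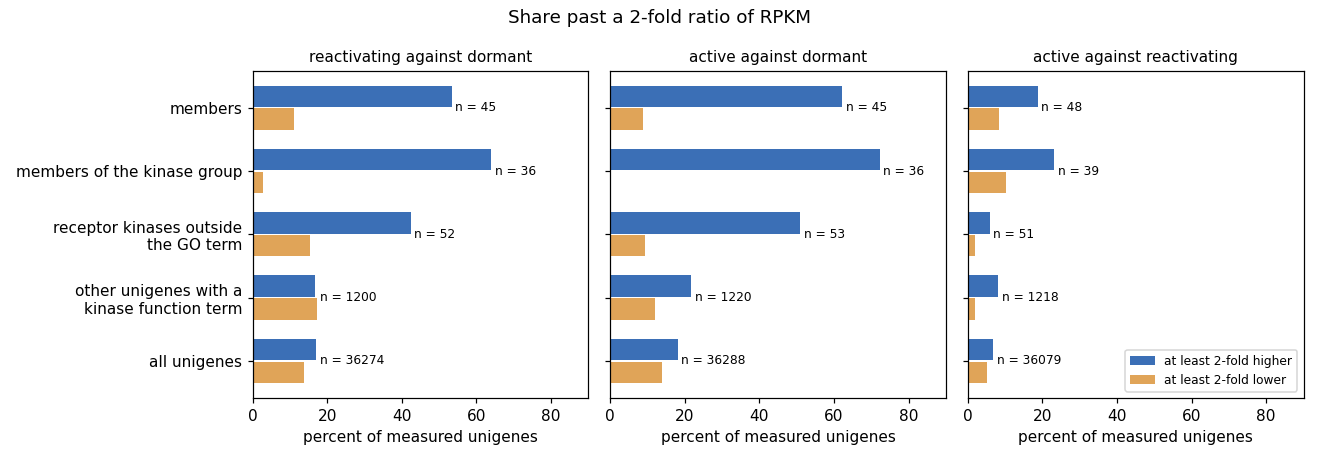
Percent of measured unigenes at least 2-fold higher (upper bar) and lower (lower bar) in each of the 3 comparisons, for the members, the kinase group, receptor kinases by name outside the term, other unigenes with a kinase function term, and all unigenes, with the number measured beside each pair. The members and the kinase group have the longest bars for higher in every panel, and other kinase unigenes lie near all unigenes.

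Ligands and downstream parts of the pathway were few by name. Phytosulfokine, a peptide that acts through a receptor kinase to favour cell growth, had 2 precursor unigenes. Unigene49847 had 449, 7 and 24 reads and Unigene29881 had 194, 64 and 23 reads, dormant to active. They were 64.2-fold (30.9 to 160) and 3.03-fold (2.27 to 4.09) lower in the reactivating library than in the dormant library. The CLE21 peptide unigene, Unigene56244, of a family of receptor kinase ligands, had 4, 75 and 23 reads and was 18.7-fold higher in the reactivating library (7.02 to 70.6). The ligand unigenes differed in direction among themselves.

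Among the respiratory burst oxidases, which make reactive oxygen after receptor signals, 2 of 6 were at least 2-fold higher and 1 lower in the reactivating library than in the dormant library. Unigene18988 had 25.5, 161 and 186 RPKM in the dormant, reactivating and active libraries and was 6.33-fold higher in the reactivating library (5.42 to 7.42). Of the 4 unigenes for 14-3-3 proteins, which bind phosphorylated partners, 1 was higher and 0 lower. Of 8 measured protein phosphatase 2C unigenes, enzymes that can reverse kinase action, 0 were higher and 1 lower. Both unigenes for ROP GTPase signalling, a switch downstream of receptor kinases, were within 2-fold. Of 3 measured unigenes with MAP kinase names, a phosphatase of MAP kinases among the 4 matched, 1 was higher and 0 lower. For all measured unigenes the shares in the same comparison were 16.9% higher and 13.8% lower.

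Marker unigenes of several kinds of cell differed between the libraries too. Unigenes for dividing cells summed to 70.8, 380 and 325 RPKM in the dormant, reactivating and active libraries, and 3 of their 8 unigenes were at 0 in the dormant library. The 48 unigenes for differentiating xylem summed to 2432, 1297 and 8276 RPKM. Against the dormant library, 10 of 32 measured were at least 2-fold higher and 20 lower in the reactivating library. In the active library 33 of 40 were higher and 2 lower. For all measured unigenes the shares were 16.9% and 13.8% in the reactivating library, and 18.1% and 13.8% in the active library. The 3 phloem unigenes, all sucrose transporters, summed to 133, 28.9 and 34.2 RPKM, the 20 photosynthesis unigenes to 127, 85.3 and 71.2 RPKM, and the 18 resin and bark unigenes to 115, 114 and 32.0 RPKM. Their part in the members' differences was not tested.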

How the data were processed

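RNA was enriched for poly(A) with oligo(dT) beads, fragmented and primed with random hexamers before PCR and Illumina sequencing, per the labels' protocols, with no strand step described. Per the file headers, the deposited tables hold the count of uniquely mapped reads per unigene, the RPKM and the percent of the unigene length covered. The deposited RPKM equalled reads divided by length and by the header total to a relative tolerance of 1e-06, with 0 exceptions. Assembler and mapper: not given in the sources used here.

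Unigenes absent from a library's table were set to 0 reads. Ratios are of deposited RPKM. A library at 0 reads was set to 3 reads, and the ratio then depends on that floor. Intervals are 95% Clopper-Pearson intervals of the reads (SciPy 1.17.1, Python 3.11.15), covering counting error only, since PCR copies are not independent molecules. On a unigene of 1 kilobase 3 reads are an RPKM of 0.513. A unigene was measured when its reads in both libraries of a comparison came to 20 or more. The ratio code was tested on simulated data. Alternatives used edgeR 4.0.16 TMM factors and DESeq2 1.42.0 size factors, as scaling only.

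The members, lists and thresholds were chosen with earlier results of these data known. Named members are the 8 largest and 8 smallest ratios per comparison (at least 50 reads), the 12 highest mean RPKM, and per name family the unigene with the most reads and the extremes. Of the other lists, a part of the unigenes that the rule gives is named. Members named outside the rule were chosen for their annotation or their place near the threshold after their values were seen, as were the lists of other kinase and amylase terms. The name pattern for respiratory burst oxidases also matched a carbohydrate transporter by spelling, which was left out of the count of 6 after the names were seen.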

Additional observations from a re-analysis of the deposited data

How the results depend on the processing

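No paired analysis was possible because each stage has 1 library. The TMM and DESeq2 scalings, which moved the median of all unigenes by at most 0.09 on the log2 scale, changed no direction of a named member and moved no count of members by over 1.5 times. Adding 1 read, or counting all unigenes with the term, also moved none by that much. Over the alternatives that give one, the members' median log2 ratio ran from 1 to 1.54 for reactivating against dormant, from 1.39 to 2.28 for active against dormant and from 0.19 to 0.32 for active against reactivating.

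For reactivating against dormant, the counts of 24 higher and 5 lower became 15 and 3 at a 4-fold threshold, and 6 and 0 for members whose hit names a receptor or a kinase (10 measured). The count lower became 9 with no minimum of reads, 1 among unigenes of at least 500 bases and 1 without the amylase and transcription factor groups, an alternative chosen after seeing the data. For active against dormant, the counts of 28 and 4 became 18 higher at 4-fold, 18 and 0 among unigenes of at least 500 bases, 7 and 0 by receptor or kinase name, and 0 lower without the amylase and transcription factor groups. For active against reactivating, the counts of 9 and 4 became 0 and 0 at 4-fold, 2 and 1 with the counting interval wholly beyond 2-fold, 5 higher among unigenes of at least 500 bases, 5 and 2 with reads summed by best hit, 2 and 1 by receptor or kinase name, and 2 lower at a minimum of 100 reads. Members set apart in 1 library numbered 28, and 15 at a 4-fold distance. Stricter thresholds and smaller sets lower a count by construction, and no minimum of reads adds unigenes. Depth limits the 8 members under 20 reads in all, for which no difference was read.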
